A study of Mus musculus with 12 samples.

Results

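Angpt1, Angpt2, Tek, Tie1, Apln, Aplnr and Esm1 are 7 genes of the angiopoietin-Tie and apelin systems and of sprouting vessels. They were chosen by symbol from the 32285 genes counted in single cells of mouse lymph node, and not by their values. Earlier results of these data were known when they were chosen. All mice were C57BL/6, 7 to 10 weeks old, carried floxed copies of the autophagy gene Atg12 (labelled ATG12 fl/fl) and received tamoxifen 5 times. They had or lacked CDH5 CreER, a tamoxifen-dependent recombinase driven by an endothelial promoter, and are called here libraries labelled Cre-positive or Cre-negative. On shaved abdominal skin they received 50 ul of 4% oxazolone, a contact sensitiser, in acetone and olive oil, and the nodes came from day 3 or day 7. Vehicle mice received the acetone and olive oil alone. Nodes were digested, cells bound by CD45 beads were separated from the rest, and both fractions were sorted and sequenced. The CD31 libraries hold the unbound cells, in which endothelial cells are enriched, and the CD45 libraries hold the bound cells. Each combination of label, treatment and fraction was 1 library, 12 in all. The labels do not give the number of mice in a library.

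Angiopoietin 1 is a ligand made by perivascular and stromal cells that activates Tie2, the receptor encoded by Tek, and keeps vessels quiet. Angiopoietin 2 is stored in and released by endothelial cells, and can oppose or replace angiopoietin 1 at the same receptor. Tie1 is a related receptor with no clear ligand of its own that modifies Tie2 signalling. Apelin, encoded by Apln, is a peptide made by tip cells at the front of growing sprouts, and its receptor Aplnr sits on veins and capillaries. Esm1 encodes endocan, a secreted proteoglycan also used as a mark of tip cells.

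On build GRCm38, the genes lie at chr15:42424723-42676977 (Angpt1), chr8:18690263-18741562 (Angpt2), chr4:94739289-94874976 (Tek), chr4:118471191-118490061 (Tie1), chrX:48025146-48034853 (Apln), chr2:85136225-85139923 (Aplnr) and chr13:113209659-113218098 (Esm1). RefSeq promoter windows were matched for 4 of the 7 genes. The 250 bases before the start are shown for Apln, Esm1 and Tek, since the results below turn on the separate places in which these 3 genes were counted. Sequences run 5′ to 3′ on the strand of the gene, from build GRCm38.p6, and capitals mark GGAA or its reverse TTCC, the core letters bound by ETS factors, a family that includes regulators of endothelial genes.
Apln (chrX:48034854-48035103, minus strand): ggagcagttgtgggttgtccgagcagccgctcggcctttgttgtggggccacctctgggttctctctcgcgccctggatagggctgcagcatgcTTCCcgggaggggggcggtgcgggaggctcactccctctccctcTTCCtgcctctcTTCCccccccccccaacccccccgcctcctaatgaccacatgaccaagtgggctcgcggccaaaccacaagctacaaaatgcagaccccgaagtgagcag
Esm1 (chr13:113209409-113209658, plus strand): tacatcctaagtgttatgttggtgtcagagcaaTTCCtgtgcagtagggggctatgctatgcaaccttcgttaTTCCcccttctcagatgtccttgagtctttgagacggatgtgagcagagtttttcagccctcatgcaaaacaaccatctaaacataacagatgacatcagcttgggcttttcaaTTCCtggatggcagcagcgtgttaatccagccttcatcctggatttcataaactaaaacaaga
Tek (chr4:94739039-94739288, plus strand): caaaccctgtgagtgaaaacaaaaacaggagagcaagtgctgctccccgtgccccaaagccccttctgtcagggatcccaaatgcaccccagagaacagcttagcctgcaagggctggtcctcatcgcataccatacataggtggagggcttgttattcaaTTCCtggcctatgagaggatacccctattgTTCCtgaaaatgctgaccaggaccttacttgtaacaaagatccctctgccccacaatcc
The core letters occur 3 times in the Apln window, 3 times in the Esm1 window and 2 times in the Tek window, and at least once in 93.4% of 32851 windows of the same length. The longer form GGAAG (reverse CTTCC), which contains the core, occurs 3 times for Apln and not for Esm1 or Tek, against 64.1% of all windows with a match. Neither TGTTTAC (reverse GTAAACA), letters bound by FOXO factors, nor ACGTG (reverse CACGT), the core bound by hypoxia-inducible factors, is in the 3 windows. They are in 3.17% and 16.6% of all windows. The Tie1 window, which is not printed, holds the core 7 times, the longer form 6 times and neither of the other motifs. The Apln window has a GC content of 65.2%, the Tek window 51.2% and the Esm1 window 44.0%.

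After filtering, 46508 cells remained in the 6 CD31 libraries and 42546 in the 6 CD45 libraries, 5698 to 10553 per library. Clusters were named "-like" from marker genes, and clusters without enough markers are named by a leading gene. The 7 genes gave 70 to 3917 UMIs each in CD45 cells and 2605 to 34965 in CD31 cells, where a UMI marks 1 captured molecule. Levels are in CPM, the UMIs of a gene scaled to a fixed total of UMIs in the class, and intervals are exact at 95% and cover counting error only. Sets of 6 values run vehicle, then day 3, then day 7, and in each pair the Cre-negative label comes first. Each group is 1 library, so p-values measure only the spread among these libraries. Atg12 itself was not lower under the Cre-positive label over all blood endothelial-like cells. These held 52.4 and 74.4, 46.4 and 60.5, and 51.5 and 64.8 CPM, higher under the Cre-positive label in each of 3 pairs. Among them, HEV-like cells held 44.0 and 46.1, 40.5 and 49.6, and 41.0 and 37.6 CPM, lower under that label at day 7 alone. The HEV-like intervals overlapped in each pair. The counts come from the 3′ end of the transcript and the labels do not name the floxed exon, so this does not check the deletion. The share of cells with a UMI from Y-linked genes was 25% to 79.3% per library. In the CD31 libraries it was 59.0% and 74.5%, 32.8% and 43.2%, and 42.2% and 26.3%, so both vehicle libraries were highest. In the CD45 libraries it was 54.2% and 79.3%, 35.3% and 55.2%, and 40.2% and 25%. A male cell can lack such a UMI, so these shares do not give the mix of sexes in a library. Fits were also run on cells with a Y-linked UMI alone, and the part of these shares in the treatment comparisons was not otherwise tested. Free RNA made up 7.91% to 12.2% of the UMIs of B cell-like cells in the CD31 libraries and 0.714% to 1.56% in the CD45 libraries. The CD31 library of day 3 labelled Cre-positive stood apart in holding 2363 of the 3158 cells of a cluster with few UMIs, which was left out of all classes.

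The 7 genes fell into 3 patterns over the CD31 cells. Tek, Tie1 and Aplnr were spread over the blood endothelial-like clusters, which held 82.3%, 80.8% and 94.1% of their UMIs and 50.2% of all cells. Apln and Esm1 were also blood endothelial, with 89.5% and 95.7% of UMIs there, but each was highest in 1 small cluster. Angpt1 was mostly outside the blood endothelial-like cells, with 78% of its UMIs in lymphatic endothelial-like cells, which were 10.3% of cells, and 4.39% in blood endothelial-like cells. Angpt2 was split, with 53.0% in blood endothelial-like and 37.5% in lymphatic endothelial-like cells. In the CD45 libraries, fibroblast-like cells were 19.5% of cells and held 87.1% of the UMIs of Angpt1, 79.4% of Angpt2, 91.9% of Tek and 82.3% of Apln. Classes are clusters of these same cells, so levels are compared between classes as a description, with no test. Classes also differed in depth, so a share of UMIs beside a share of cells is not a measure of level.

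**Figure D1:**
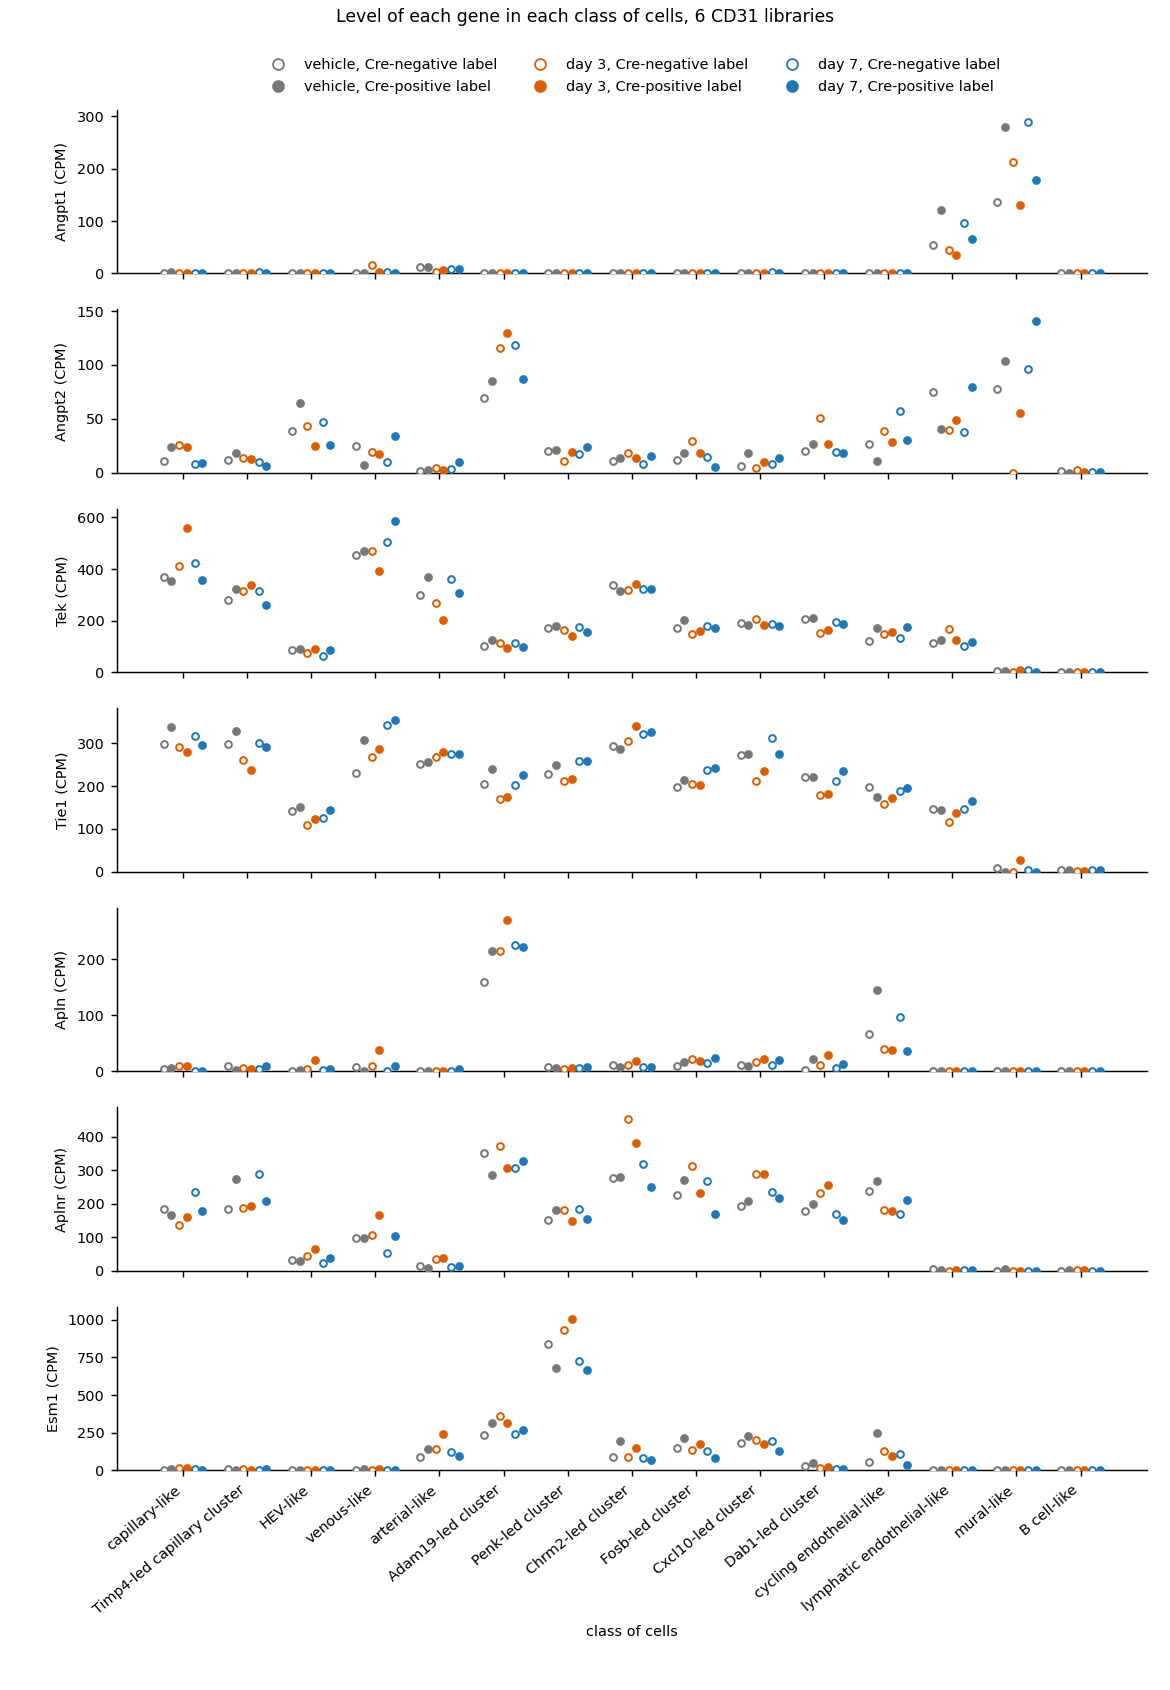
Level of each gene in CPM (vertical axes, linear, from 0) in 15 classes of cells of the 6 CD31 libraries; each point is 1 library, colour is treatment and filled points carry the Cre-positive label. Apln peaks in the Adam19-led cluster at 158 to 270 CPM, Esm1 in the Penk-led cluster at 667 to 1007 CPM, and Angpt1 in mural-like and lymphatic endothelial-like cells.

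Of the ligands, Angpt1 was highest in mural-like cells, the pericytes and smooth muscle cells of vessel walls, among the classes shown in the plot of levels by class. Small immune clusters that were pooled as other immune cells also held it: 246 CPM in 59 Prss34-led cells and 65.4 CPM in 216 NK cell-like cells of the CD31 libraries. The mural-like levels of Angpt1 were 137 and 280, 213 and 130, and 289 and 179 CPM, in 11 to 48 cells per library. The next class in that plot was lymphatic endothelial-like cells, at a median of 60.3 CPM, and the ranges of these classes did not overlap. Arterial-like cells followed at a median of 7.82 CPM, again without overlap. In the Adam19-led cluster and the Mt1-led cluster the median was 0. Mural-like cells were few, and only 2 of the 7 genes could be tested in them. At day 3 Angpt1 differed from vehicle by -0.33 ± 0.46 (log2 change ± SE). Angpt2 in mural-like cells was 77.6 and 104 CPM at vehicle, 0 and 55.7 at day 3 and 96.4 and 140 at day 7. Both day 3 libraries were below both vehicle libraries, with a log2 change of -1.50 ± 0.66 and an adjusted p of 0.59 by edgeR's quasi-likelihood test. Neither gene passed the test at day 3 (0 of 2, against 0.0489% of all genes called), at day 7 (0 of 2, against 0.0245%) or between labels (0 of 2, against 0.122%). The counts with an unadjusted p under 0.05 were 1, 0 and 0 (334, 120 and 250 of 4088 genes), and those called by DESeq2 were all 0. Summed B cell markers reached 297 CPM in mural-like cells, and their part in these values was not tested.

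Angpt1 and Angpt2 differed in order between the clusters of lymphatic endothelial-like cells. These cells line the sinuses of the node, and 3 clusters made up the class, led by Ackr4, Ccl20 and Lyve1. Angpt1 was higher in the Ccl20-led cluster, at 91.6 and 183, 72.5 and 52.0, and 153 and 111 CPM, than in the Ackr4-led cluster, at 36.8 and 43.8, 26.7 and 18.6, and 36.7 and 40.2 CPM. The ranges of these clusters did not overlap. Angpt2 showed the opposite order between these clusters. It was 93.0 and 60.9, 47.9 and 49.9, and 39.9 and 87.7 CPM in the Ackr4-led cluster, and at most 12.2 CPM in the Ccl20-led cluster. The Lyve1-led cluster held both ligands, with Angpt1 at 47.8 to 163 CPM and Angpt2 at 46.3 to 204 CPM, above the Ackr4-led cluster in 5 of 6 libraries for Angpt2. Tek, their receptor, was 148 to 259 CPM in the Ackr4-led cluster and 28.8 to 44.4 CPM in the Ccl20-led cluster, and the Lyve1-led cluster lay between at 81.7 to 128 CPM. In the whole class, Tek was 115 and 126, 166 and 125, and 103 and 119 CPM, and Tie1 was 117 to 165 CPM. Tek was highest in the day 3 library labelled Cre-negative, and the other 5 libraries lay close together.

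**Figure D2:**
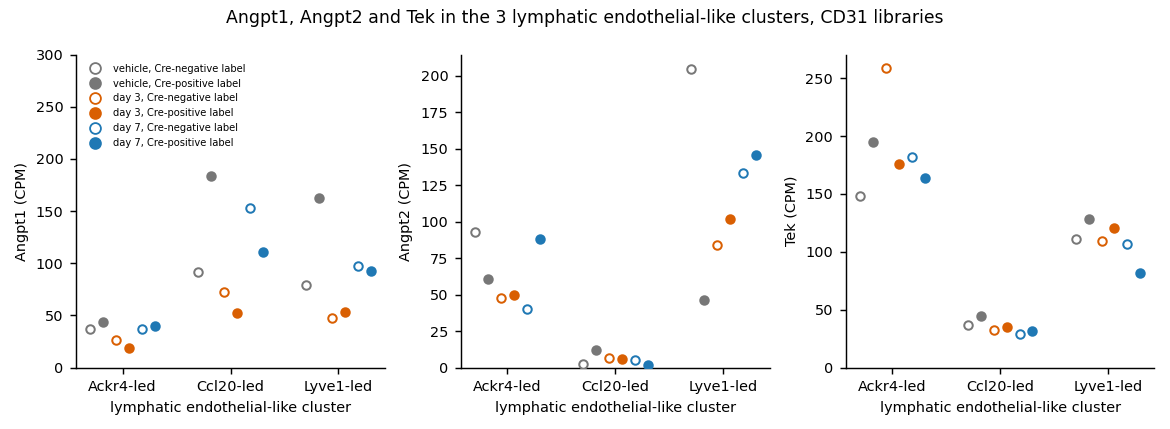
Angpt1, Angpt2 and Tek in CPM (vertical axes, linear, from 0) in the 3 lymphatic endothelial-like clusters of the CD31 libraries; each point is 1 library. Between the Ackr4-led and Ccl20-led clusters, Angpt1 is higher in the Ccl20-led one and Angpt2 and Tek in the Ackr4-led one in all 6 libraries.

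Over the whole lymphatic class, Angpt1 was 54.8 and 121 CPM at vehicle, 44.2 and 35.3 at day 3 and 96.8 and 65.8 at day 7. Both day 3 libraries were below the other 4. The log2 change at day 3 was -1.10 ± 0.38 with an adjusted p of 0.96 by edgeR's quasi-likelihood test. This value rested on the vehicle libraries: it was -1.82 without the one labelled Cre-negative (adjusted p 0.0024) and -0.23 without the one labelled Cre-positive (adjusted p 1.0), and with no filter on low counts it was -1.11 (adjusted p 0.0380). Angpt2 was 75.2 and 40.2, 39.6 and 48.8, and 37.9 and 79.8 CPM, and its groups overlapped (day 3 log2 change -0.39 ± 0.40). None of the 6 genes tested passed at day 3 (0.0% of all genes called), at day 7 (0.0%) or between labels (0.00752%). The unadjusted p was under 0.05 for 1, 0 and 0 of them (654, 103 and 334 of 13301 genes), and DESeq2 called 0 each time. The Ccl20-led cluster made up 197 of 901 and 258 of 732 of these cells at vehicle, 144 of 500 and 114 of 491 at day 3, and 483 of 1159 and 185 of 1012 at day 7. Its share was lower in the library with less Angpt1 in each pair, and the part of this in the class level was not tested.

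Angpt2 in the blood vessels was highest in the Adam19-led cluster, described below with Apln, at a median of 101 CPM. HEV-like cells, which line the high endothelial venules through which lymphocytes enter the node, followed among the blood vessel classes at a median of 41.0 CPM. They were 3.37% of the CD31 cells and held 14.8% of the Angpt2 UMIs. Their median depths, given below, were above the CD31 library medians of 3433 to 5085 UMIs, so these shares are not like for like. Arterial-like cells lay lowest of the named vessel types, and capillary-like and venous-like cells had medians of 17.4 and 18.4 CPM, which did not differ beyond their spread. In HEV-like cells Angpt2 was 38.6 and 65.1 CPM at vehicle, 43.5 and 25 at day 3 and 46.9 and 25.9 at day 7. The 3 groups overlapped, and the day 3 log2 change was -0.70 ± 0.33 with an adjusted p of 0.28 by edgeR's quasi-likelihood test. In capillary-like cells, Angpt2 was 10.6 and 24.3 CPM at vehicle, 25.7 and 24.3 at day 3 and 8.50 and 9.10 at day 7. Both day 7 libraries were lowest. The day 3 log2 change was 0.62 ± 0.34. The day 3 change of Angpt2 was lower in HEV-like than in capillary-like cells by 1.17 ± 0.37 on the log2 scale, tested within libraries, with an adjusted p of 0.27 by edgeR's quasi-likelihood test. Of the 6 genes tested (Angpt1 was too low), none passed that test of the difference at day 3 (0.252% of all genes called) or at day 7 (0.0%). The unadjusted p was under 0.05 for 5 of them at day 3 and for 1 at day 7, and for 1172 and 413 of all 11096 genes. DESeq2 called none, and at day 3 it gave an adjusted p for Tek and Tie1 alone. For Aplnr the day 3 difference, HEV-like minus capillary-like, was 0.97 ± 0.29 (adjusted p 0.23), and for Apln it was 2.26 ± 1.01 (adjusted p 0.43).

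Of the receptors, Tek and Tie1 were present in every blood vessel class, and neither passed the test in those fitted (capillary-like, HEV-like, venous-like and arterial-like cells and the Adam19-led and Penk-led clusters). Tek was highest in venous-like cells, at 453 and 468, 470 and 393, and 504 and 586 CPM, in 20 to 63 cells per library. Capillary-like cells, at 368 and 354, 412 and 559, and 425 and 356 CPM, overlapped with them. The Adam19-led cluster (median 107 CPM) and HEV-like cells (median 85.8 CPM) lay lowest among the blood endothelial clusters, without overlap between them. HEV-like Tek was 86.0 and 92.2, 76.6 and 88.8, and 63.5 and 85.6 CPM. Both day 7 libraries were below both vehicle libraries, and those of day 3 overlapped with each. Below HEV-like cells, myeloid-like cells had a median of 7.14 CPM. In capillary-like cells the day 3 log2 change of Tek was 0.42 ± 0.18, with an adjusted p of 0.78 by edgeR's quasi-likelihood test, and both day 3 libraries were above both vehicle libraries. Arterial-like Tek was 298 and 368, 268 and 204, and 360 and 309 CPM, with both day 3 libraries below the other 4. Its log2 change of -0.46 ± 0.17 had an adjusted p of 0.20.

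Tie1 varied less than Tek between the vessel classes. Its medians in the Chrm2-led cluster, venous-like cells and capillary-like cells were 313, 297 and 297 CPM, and the ranges overlapped. Tie1 levels of HEV-like cells were 142 and 151, 109 and 123, and 126 and 144 CPM. The day 3 libraries were the lowest, and the log2 change of -0.37 ± 0.17 had an adjusted p of 0.27 by edgeR's quasi-likelihood test. In arterial-like cells the day 3 log2 change was 0.16. Mural-like cells held Tek at 0 to 9.64 CPM and Tie1 at 0 to 27.8 CPM. In the CD45 libraries Tie1 had 108 UMIs in all, of which 86.1% lay in 1 small subcluster that was clustered with the stromal cells and not named. It had 5 to 20 cells per library and held Tie1 at 24.5 to 353 CPM and Tek at 12.3 to 176 CPM. Aplnr there was 0 to 125 CPM and Esm1 0 to 268 CPM. Whether these were endothelial cells was not tested.

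Over all blood endothelial-like cells together (2899 to 4759 per library), no member passed the test. Tek was 225 and 235, 206 and 193, and 193 and 223 CPM, and Tie1 was 239 and 247, 205 and 217, and 228 and 259 CPM. Tie1 was lowest in both day 3 libraries, and the day 3 levels of Tek were below vehicle but overlapped with day 7. None of the 7 passed at day 3 (0.0% of all genes called), at day 7 (0.0%) or between labels (0.00673%), by edgeR's quasi-likelihood test, and DESeq2 called none of them either. At an unadjusted p under 0.05 there was 1 of 7 in each of the 3 comparisons, beside 3583, 420 and 411 of 14861 genes, so 1 member at day 3 is no more than the background. At day 3 that gene was Apln, with 16.2 and 18.6 CPM at vehicle and 17.7 and 24.5 at day 3 (log2 change 0.32 ± 0.12, adjusted p 0.17). At day 7 it was Esm1, with 158 and 180 CPM at vehicle and 120 and 112 at day 7 (log2 change -0.48 ± 0.19, adjusted p 0.999). Between labels it was again Apln, higher under the Cre-positive label in all 3 pairs (0.38 ± 0.10, adjusted p 1.0). The capillary-like fit gave 0 of 6 called at day 3 (0.0307% of all genes), at day 7 (0.0102%) and between labels (0.0512%), with 2, 2 and 0 at an unadjusted p under 0.05 (614, 256 and 382 of 9774 genes). The venous-like fit gave 0 of 3 in each (0.206%, 0.0% and 0.0%). None of the 3 had an unadjusted p under 0.05, beside 746, 225 and 154 of 5839 genes. For these fits the DESeq2 calls also numbered 0. In simulated counts of these depths, the same fit recovered 100% of genes changed by 2 on the log2 scale and 72% of those changed by 1 for all blood endothelial-like cells, and 100% and 66% for capillary-like cells. For mural-like cells the shares were 94% and 50%, and these 3 simulated fits gave 5 to 6 false calls each. For fibroblast-like cells, described below, the shares were 100% and 73%, with 10 false calls. The changed genes were drawn from well-counted genes, with a fixed spread and no difference between labels. These shares therefore do not cover members near the floor or the spread between the real libraries.

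**Figure D3:**
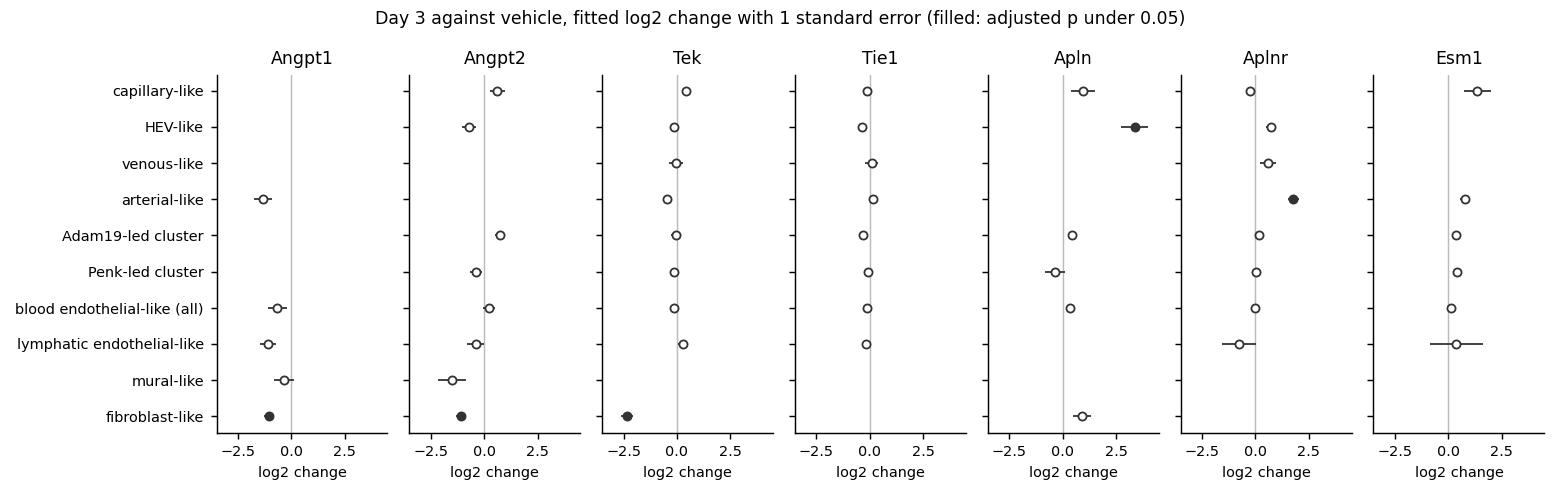
Fitted log2 change at day 3 against vehicle (horizontal axes) for each gene in each class that could be fitted; bars are 1 standard error and filled points have an adjusted p under 0.05. Filled points are Apln in HEV-like cells and Aplnr in arterial-like cells, to the right of 0, and Angpt1, Angpt2 and Tek in fibroblast-like cells, to the left. The Adam19-led, Penk-led and fibroblast-like fits were added after their levels were seen.

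Apln marked 1 small cluster of blood endothelial-like cells, whose leading genes were Apln itself, Adam19, Nox4 and Prnd. The cluster held 645 cells, 1.39% of the CD31 cells, and 36.9% of their Apln UMIs. The members were left out of the genes used for clustering, so Apln took no direct part in forming the cluster. It ranked among the leading genes afterwards. The cluster was found in these same cells, so the level of Apln there, against other clusters, is a description. Apln was 158 and 214 CPM at vehicle, 214 and 270 at day 3 and 226 and 222 at day 7. The vehicle library labelled Cre-negative was lowest, and the log2 change at day 3 was 0.45 ± 0.20 with an adjusted p of 0.28 by edgeR's quasi-likelihood test. The next class was cycling endothelial-like cells, at 65.6 and 145, 40.4 and 38.3, and 96.9 and 35.7 CPM, and the ranges did not overlap with the Adam19-led cluster. The Fosb-led cluster followed at a median of 17.9 CPM. The Adam19-led cells were 3.53% and 3.04% of blood endothelial-like cells at vehicle, 1.72% and 1.89% at day 3 and 3.17% and 3.59% at day 7. The day 3 libraries were lowest, and with 1 library per group this share has no test.

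The other members were also present in the Adam19-led cluster, save Angpt1, which had no UMI in its 645 cells. Angpt2 was 69.7 and 85.2 CPM at vehicle, 116 and 129 at day 3 and 119 and 86.7 at day 7. All 4 oxazolone libraries were above both vehicle libraries. At day 3 its log2 change was 0.75 ± 0.23, with an adjusted p of 0.17 by edgeR's quasi-likelihood test. Aplnr, the receptor for apelin, was 351 and 286, 373 and 306, and 307 and 328 CPM, among the highest levels of any class together with the Chrm2-led cluster, which it overlapped. Esm1 was 234 and 315, 362 and 315, and 240 and 266 CPM, below only the Penk-led cluster. Tek was 92.7 to 124 CPM and Tie1 170 to 240 CPM. None of the 6 genes tested passed at day 3 (0.168% of all genes called), at day 7 (0.0%) or between labels (0.024%). The unadjusted p was under 0.05 for 2, 0 and 0 of them (1319, 242 and 393 of 8318 genes), and calls by DESeq2 numbered 0 each time.

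Detection of the other members was then compared between single cells with and without Apln. With each blood endothelial-like cell thinned to 1000 UMIs and the 6 libraries pooled, 251 cells had a UMI of Apln. Of these, 20 also had Angpt2 (7.97%, interval 4.93% to 12.0%), against 1.67% of cells without Apln. The share was higher among cells with Apln in each of the 6 libraries, at 5.26% to 13.3%. Aplnr was found in 23.9% against 15.3%, and Esm1 in 14.3% against 9.34%. Tek went the other way, in 17.1% of cells with Apln against 22.3% of cells without. Angpt1 was in 0 of the 251 cells (upper bound of the exact interval 1.46%). Without thinning, Angpt2 was found in 305 of 960 cells with Apln (31.8%) and in 6.08% of the others. Cells of 1 library are not replicates, so no test was made. The Adam19-led cluster, highest in both Apln and Angpt2 among the blood vessel classes, is among these cells. Its part in these shares was not tested.

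HEV-like cells held little Apln at vehicle and more at day 3. The UMIs of Apln were 0 and 5 at vehicle, 16 and 63 at day 3 and 14 and 7 at day 7, in 122 to 486 cells per library. In CPM these are 0 and 2.11, 4.35 and 19.9, and 2.37 and 4.31 CPM. The day 3 library labelled Cre-positive was far above the other 5, with an interval of 15.3 to 25.5 CPM, and the day 3 library labelled Cre-negative was just above those of day 7. The log2 change at day 3 was 3.38 ± 0.64 with an adjusted p of 0.0290 by edgeR's quasi-likelihood test, and it rests on a vehicle library with no UMI. Of the 5 genes tested in HEV-like cells, Apln was the only one called, against 1.97% of 10716 genes (90 higher and 121 lower). Under the Cre-positive label alone, day 3 was 9.42 times vehicle (interval 3.83 to 30.01). The call was lost without the day 3 library labelled Cre-positive (log2 change 2.79, adjusted p 0.389), and just lost when sums were scaled to their totals without TMM (adjusted p 0.0501). DESeq2 gave Apln no adjusted p here. Over the other settings the log2 change ran from 2.66 to 7.10, the highest without the vehicle library labelled Cre-positive, where the vehicle library left has no UMI and the fitted size is no measure of the change.

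Apln was detected in 0% and 1.80% of HEV-like cells at vehicle, 4.08% and 11.7% at day 3 and 2.47% and 2.46% at day 7. After thinning to 1000 UMIs these shares were 0% and 0%, 0.340% and 2.26%, and 0.412% and 0%. In B cell-like cells, which should lack it, Apln had 1 UMI over the 6 libraries, in the day 7 library labelled Cre-negative. Median depths were 10293 to 12842 UMIs in HEV-like cells and 2930 to 3622 in B cell-like cells. The free RNA of the 6 libraries held Apln at 3.98 to 9.53 CPM. Summed cycling markers were 36.7 and 30.03, 62.8 and 82.8, and 20.1 and 56.1 CPM. They were highest in the day 3 libraries, as Apln was, but the remaining libraries did not follow the order of Apln. Of 9 cell cycle genes tested in HEV-like cells, 2 were higher at day 3, Tyms (log2 change 1.20 ± 0.21, adjusted p 0.0211) and Birc5 (3.02 ± 0.65, adjusted p 0.0414). The part of cycling cells in the Apln level was not tested. Summed HEV markers were 47180 and 36717, 42546 and 26438, and 106289 and 32779 CPM, with all 8 detected. They were lowest in the day 3 library labelled Cre-positive, which was highest in Apln, and their part in the Apln level was not tested.

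No other member passed the test in HEV-like cells at day 3. Aplnr was 33.7 and 29.2 CPM at vehicle, 44.6 and 63.9 at day 3 and 22.3 and 38.2 at day 7. Both day 3 libraries were above the other 4, with a log2 change of 0.73 ± 0.23 and an adjusted p of 0.14 by edgeR's quasi-likelihood test. Esm1 stayed at 0 to 4.65 CPM. At day 7 none of the 5 genes passed (0.0% of all genes called), and Apln had a log2 change of 1.97 ± 0.78 with an adjusted p of 0.96. Between labels none passed (0.028% of all genes called), and Apln was higher under the Cre-positive label by 1.81 ± 0.45 on the log2 scale, with an adjusted p of 0.46. At both, 1 of the 5 had an unadjusted p under 0.05 (408 and 539 of 10716 genes), and 0 were called by DESeq2. In HEV-like cells at day 3, none of the other genes listed for the angiopoietin-Tie pathway (0 of 9), the apelin pathway (0 of 7) or tip cells (0 of 25) passed the test, against 1.97% of all genes. These lists leave out the 7 members.

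**Figure D4:**
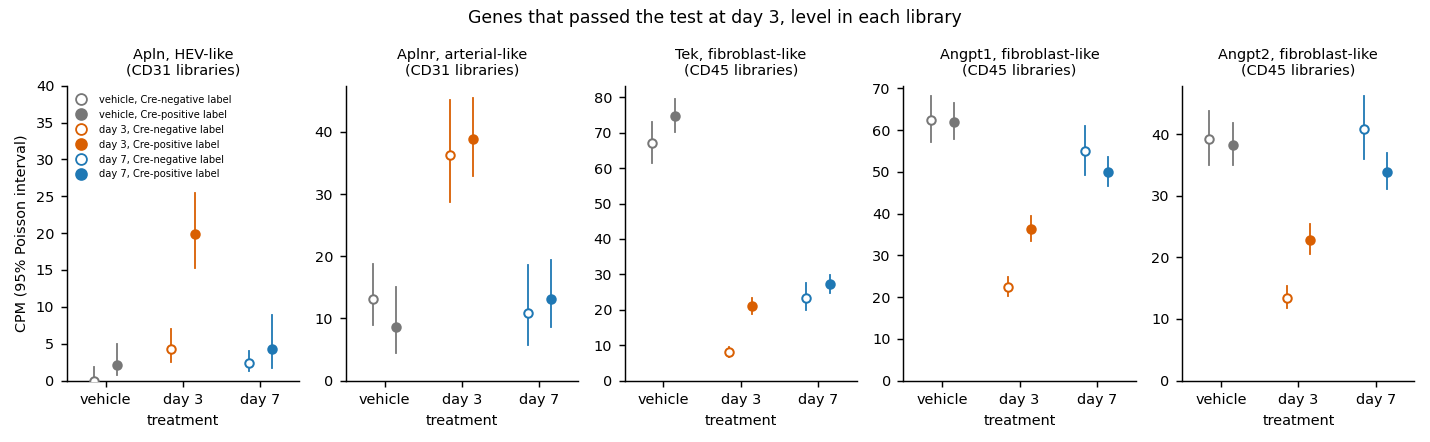
Level in CPM (vertical axes, linear, from 0) in each library of the genes and classes with an adjusted p under 0.05 at day 3; bars are 95% Poisson intervals, which cover counting error only. HEV-like Apln is high in 1 of the day 3 libraries (19.9 CPM) and arterial-like Aplnr in both (36.3 and 38.8 CPM), while the fibroblast-like panels are lowest at day 3. The fibroblast-like fit was added after its levels were seen.

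Aplnr rose in arterial-like cells at day 3. Its UMIs were 31 and 12, 80 and 157, and 13 and 26, in 344 to 821 cells per library. In CPM these are 13.2 and 8.60 CPM at vehicle, 36.3 and 38.8 at day 3 and 10.9 and 13.2 at day 7. Both day 3 libraries were clear of the other 4, which lay close together. The log2 change was 1.78 ± 0.26 with an adjusted p of 0.0186 by edgeR's quasi-likelihood test. Within the Cre-negative label day 3 was 2.75 times vehicle (interval 1.80 to 4.31), and within the Cre-positive label 4.51 times (2.51 to 8.92). Aplnr was the only one of 5 genes called in arterial-like cells, against 1.52% of 10690 genes. At day 7 its log2 change was 0.12 ± 0.33.

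The share of arterial-like cells with a UMI of Aplnr was 4.05% and 1.57%, 7.38% and 9.14%, and 2.62% and 4.17%. Its share of B cell-like cells in those libraries was 0.209% to 0.580%. Thinned to 1000 UMIs, the arterial-like shares were 0.528% and 0.522%, 2.87% and 2.19%, and 0.581% and 0.245%, so the day 3 libraries were again highest. The free RNA held Aplnr at 42.3 to 74.8 CPM. With the estimated free RNA taken out, the arterial-like levels were 9.32 and 0, 30.8 and 30.8, and 4.66 and 8.50 CPM, and the log2 change was 2.58 with an adjusted p of 0.103. The call was also lost in cells with Y-linked UMIs alone (1.31, adjusted p 0.122) and with coarser clusters (0.62, adjusted p 0.566). It was lost without the day 3 library labelled Cre-positive (1.65, adjusted p 0.209) and without the day 7 library of either label (adjusted p 0.0545 and 0.0591). Of 13 other settings, 7 kept it, and DESeq2 gave Aplnr no adjusted p here.

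The arterial-like class was made of 3 clusters, and Aplnr was mainly in the one led by Nts and Dkk2, with the arterial connexins Gja5 and Gja4 among its leading genes. There it was 17.9 and 14.7, 56.2 and 47.1, and 15.7 and 16.1 CPM in 165 to 593 cells, with both day 3 libraries again the highest. The cluster led by Col8a1 and Fbln5 held Aplnr at 0 to 7.67 CPM. Esm1 kept to the same cluster as Aplnr, at 133 and 310, 223 and 299, and 180 and 122 CPM, against 0 to 22.5 CPM in the Col8a1-led cluster. Angpt1 was found instead in the Mgp-led cluster, at 79.8 and 89.8, 27.5 and 49.0, and 44.2 and 85.4 CPM in 45 to 116 cells. Tek was 337 to 579 CPM in that cluster.

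For the arterial-like class as a whole, Esm1 was 87.6 and 143 CPM at vehicle, 141 and 238 at day 3 and 119 and 96.9 at day 7. Its log2 change at day 3 was 0.78 ± 0.23, with an adjusted p of 0.12 by edgeR's quasi-likelihood test, and the groups overlapped. Angpt1 was 11.9 and 12.9 CPM at vehicle and 2.72 and 6.68 at day 3, a log2 change of -1.31 ± 0.42 with an adjusted p of 0.14. At day 3, 4 of the 5 genes had an unadjusted p under 0.05, as did 1935 of all 10690. None of the 5 passed at day 7 (0.0% of all genes called) or between labels (0.0187%), and 0 were called by DESeq2. The unadjusted p was under 0.05 for 0 and 1 of the 5 (290 and 328 of 10690 genes). Of 25 tip cell genes tested in arterial-like cells at day 3, 4 were higher and none lower, against 1.52% of all genes called in either direction, with a list median of 0.39 against -0.02 for all genes. They were Plaur, the urokinase receptor (3.05 ± 0.28, adjusted p 0.00536), Igfbp3, an insulin-like growth factor binding protein (1.16 ± 0.15, adjusted p 0.0128), Nid1, a basement membrane protein (0.93 ± 0.15, adjusted p 0.0226), and Mcam, an adhesion molecule (0.82 ± 0.14, adjusted p 0.0284). Plaur was 11.5 and 3.58, 70.3 and 58.3, and 16.7 and 12.7 CPM, with both day 3 libraries far above the rest, as for Aplnr. Of the angiopoietin-Tie list 1 of 9 was called, the integrin gene Itgb1 (0.68 ± 0.14, adjusted p 0.0483), and of the apelin list 0 of 8. No cell cycle gene of 5 was called.

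Esm1 was highest in a cluster led by Penk and without a vessel name. The cluster was 4.64% of the CD31 cells and held 46.8% of the Esm1 UMIs. Esm1 there was 841 and 681 CPM at vehicle, 933 and 1007 at day 3 and 729 and 667 at day 7. The highest 2 of the 6 were those of day 3. The log2 change was 0.42 ± 0.20 with an adjusted p of 0.37 by edgeR's quasi-likelihood test. The Adam19-led cluster (median 290 CPM) and the Cxcl10-led cluster (median 187 CPM) followed, and no ranges overlapped between neighbours. In capillary-like cells Esm1 was 4.22 and 5.40 CPM at vehicle, 12.1 and 12.7 at day 3 and 7.28 and 0 at day 7. The day 3 libraries were highest, with a log2 change of 1.36 ± 0.63 and an adjusted p of 0.79. Apln in the Penk-led cluster stayed at 3.60 to 7.97 CPM, so the clusters highest in Apln and in Esm1 were separate. None of the 6 genes tested passed in the Penk-led cluster at day 3 (0.933% of all genes called), at day 7 (0.0389%) or between labels (0.0778%). None of the 6 had an unadjusted p under 0.05, beside 1414, 265 and 450 of 10289 genes, and 0 were called by DESeq2.

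Aplnr in capillary-like cells was 184 and 165, 136 and 161, and 237 and 179 CPM, and both day 3 libraries were below the other 4. Apln there was 4.22 and 6.08, 9.99 and 9.51, and 0 and 0 CPM. The day 3 libraries were highest and those of day 7 held no UMI. The log2 change at day 3 was 0.95 ± 0.54 with an adjusted p of 0.86 by edgeR's quasi-likelihood test. Aplnr in venous-like cells was 54.6 to 167 CPM.

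Tek, a receptor known from endothelial cells, was also present in fibroblast-like cells of the CD45 libraries, where it fell at day 3. These cells, 1091 to 1860 per library, carried fibroblast markers at 21911 to 28110 CPM summed and were in the bead-bound fraction. Pan-endothelial markers summed to 8.54 to 15.7 CPM, with Cldn5 at 0 in 4 libraries. Tek had 538 and 988 UMIs at vehicle, 134 and 329 at day 3 and 148 and 434 at day 7. In CPM these are 67.0 and 74.8, 7.99 and 21, and 23.4 and 27.2 CPM. Both vehicle libraries were far above the other 4, and the lowest was the day 3 library labelled Cre-negative. The log2 change at day 3 was -2.35 ± 0.29 with an adjusted p of 0.00805 by edgeR's quasi-likelihood test. At day 7 it was -1.51 ± 0.29 with an adjusted p of 0.167. The fibroblast-like fit was added after these levels were seen, so its p-values are those of an unplanned test. Tek was detected in 15.3% and 19.1%, 6.75% and 14.3%, and 8.34% and 12.0% of fibroblast-like cells, and in 0% to 0.285% of B cell-like cells in those libraries. In bulk or summed counts, fewer cells of a type and less RNA per cell cannot be told apart, so the subclusters are given next.

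Most of the Tek came from fibroblast-like cells of 1 subcluster, led by Pi16, Smpd3 and Dpp4, of which Pi16 and Dpp4 are known from adventitial fibroblasts. It held 14% and 13.9% of fibroblast-like cells at vehicle, 4.17% and 4.30% at day 3 and 3.67% and 4.35% at day 7. It held 83.3% and 83.1%, 41.0% and 52.6%, and 51.4% and 50.5% of their Tek UMIs. Within it, Tek was 331 and 370, 125 and 370, and 300 and 278 CPM. The day 3 library labelled Cre-negative was the lowest. In the fibroblast-like cells outside this subcluster, Tek was 13.5 and 15.2 CPM at vehicle, 4.84 and 10.3 at day 3 and 11.9 and 14.2 at day 7, so both day 3 libraries were lowest there too. With 1 library per group these values have no test, and the part of the subcluster's share in the class level was not tested. Angpt2 was absent from this subcluster save 1 UMI.

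**Figure D5:**
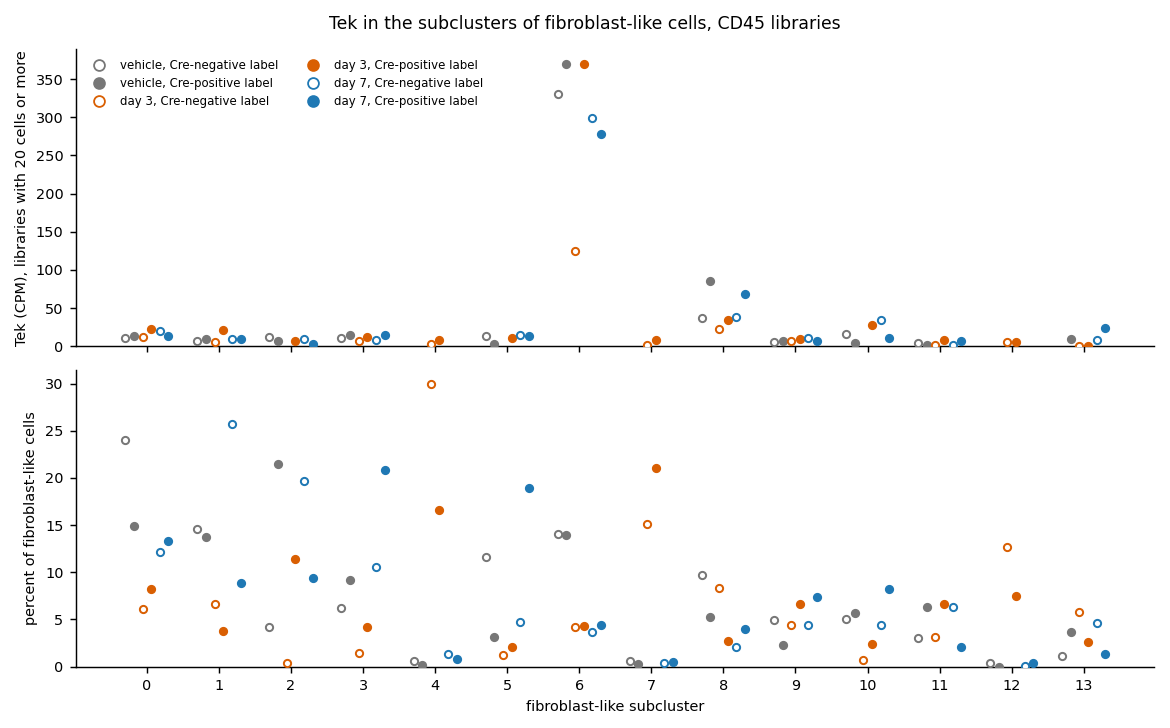
Tek in CPM (upper panel, linear, from 0) in the subclusters of fibroblast-like cells with 20 cells or more, and the percent of fibroblast-like cells in each subcluster (lower panel); each point is 1 CD45 library. Subcluster 6, led by Pi16, is highest in Tek and holds 13.9% and 14% of cells at vehicle and 3.67% to 4.35% in the oxazolone libraries.

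Both ligands were lower in CPM at day 3 in the fibroblast-like cells too, in the same unplanned fit. These cells also held more UMIs each at day 3. The class had 8028317 and 13202578 UMIs in 1297 and 1510 cells at vehicle. It had 16761728 and 15632686 UMIs in 1438 and 1117 cells at day 3. CPM is a share of these totals and not a number of molecules per cell, and the part of depth in the levels was not tested. Angpt1 was 62.5 and 62.0 CPM at vehicle, 22.5 and 36.3 at day 3 and 54.9 and 50.1 at day 7. The day 3 libraries did not overlap with the others, and those of day 7 lay between. Its log2 change at day 3 was -1.06 ± 0.21 with an adjusted p of 0.0269 by edgeR's quasi-likelihood test. Angpt2 was 39.2 and 38.3 CPM at vehicle, 13.4 and 22.8 at day 3 and 40.8 and 33.9 at day 7. The day 3 libraries were again apart, with a log2 change of -1.08 ± 0.25 and an adjusted p of 0.0381. Apln was 2.49 and 6.74, 8.83 and 8.12, and 5.38 and 4.14 CPM, with a log2 change of 0.91 ± 0.44 and an adjusted p of 0.21. Of the 4 genes tested, 3 fell at day 3, while 12.0% of all 15195 genes were called in these cells (945 higher and 880 lower). The median over the 4 was -1.07 and over all genes -0.02. At day 7 none of the 4 passed (0.191% of all genes called; 1 had an unadjusted p under 0.05, as did 1021 of 15195 genes, and DESeq2 called 1, Tek), and between labels none (0.0% called; 0 and 0).

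Angpt2 was nearly absent from the Pi16-led subcluster, as given above, and Angpt1 was present in it at 19.2 to 79.9 CPM. Angpt1 was 109 and 108, 58.4 and 67.9, and 124 and 131 CPM in the subcluster led by Mgp and Itgbl1, and Angpt2 there was 63.6 and 58.0, 20.9 and 38.2, and 63.0 and 59.2 CPM. Both ligands were lowest there in the day 3 libraries. In the subcluster led by Rerg and Ccbe1, Angpt1 was 135 and 127, 42.1 and 142, and 117 and 73.5 CPM, and Angpt2 was 57.9 to 130 CPM, with no such order. Its day 3 values rest on 17 and 23 cells, against 47 to 352 cells in the other libraries. In the subcluster led by Slit2 and Crabp1, which held Tek at 22.5 to 85.1 CPM, Angpt1 was 61.8 and 221, 66.5 and 95.3, and 155 and 120 CPM.

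These fibroblast-like results moved with the make-up of the class. Subclusters 4, 7 and 12, led by Fabp7, by Kif26b and Cxcl5, and by cell cycle genes, held 57.8% and 45.1% of fibroblast-like cells at day 3 and 0.397% to 1.74% in the other libraries. Without them the log2 changes at day 3 were -1.51 for Tek (adjusted p 0.0663), -0.79 for Angpt1 (0.123) and -0.76 for Angpt2 (0.157), and 31 genes were called in place of 1825. Without the day 3 library labelled Cre-negative they were -1.85 for Tek (adjusted p 0.110), -0.76 for Angpt1 and -0.70 for Angpt2. Without the one labelled Cre-positive Tek was -2.94 (adjusted p 0.0728). In each of these 3 settings none of the 3 genes passed the test. The call of Angpt2 was also lost with doublets kept (adjusted p 0.0526), in cells with Y-linked UMIs alone (0.126) and without the vehicle library labelled Cre-negative (0.0619). Summed cycling markers were 30.9 and 4.39, 244 and 165, and 8.54 and 29.8 CPM, and 11 of 12 cell cycle genes tested were higher at day 3, with a median log2 change of 3.81. The counts of these lists, which leave out the 7 members, stand beside 12.0% of all genes called in these cells. Of 12 other angiopoietin-Tie genes none was higher and 1 was lower, Foxo1, a transcription factor restrained by Tie2 signalling in endothelium (-1.13 ± 0.15, adjusted p 0.00935). Of 8 apelin pathway genes 2 were lower, the transcription factors Mef2c (-1.43 ± 0.22, adjusted p 0.0146) and Klf2 (-1.80 ± 0.45, adjusted p 0.0484). Of 23 tip cell genes 3 were higher and 4 lower, Igfbp3 at -2.62 and Cd34 at -1.78 among the latter and Dll4 at 1.74 and Lxn at 1.93 among the former.

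The genes whose levels followed each member most closely were found over 36 sums of library and class, as Pearson's r of log2(CPM + 1), among 11081 genes. The sums share libraries and depth, so this is a description. They cover capillary-like, HEV-like, venous-like, arterial-like, lymphatic endothelial-like and mural-like cells, and so leave out the Adam19-led and Penk-led clusters, where Apln and Esm1 were highest. Tie1 had the closest neighbours, Fgd5 at 0.99, Csgalnact1 at 0.98 and Gimap8 at 0.97. For Tek they were St6galnac3 and Ptprb, each at 0.96, and Dipk2b at 0.95, and Ptprb encodes the phosphatase that acts on Tie2. For Angpt1 they were Ift43 at 0.94, Zeb2 at 0.93 and Pip5k1b at 0.92. Aplnr was nearest to Dach1 and Kcnc2, each at 0.92, and Zfp600 at 0.91. Esm1 was nearest to Tox3 at 0.91 and Mannr and Alox12 at 0.89. Angpt2 had Bok at 0.82 and Rbm38 and Fam49a at 0.75. For Apln the nearest genes were its own receptor Aplnr and Lhx6, each at 0.62, and Fam167b at 0.61.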

How the data were processed

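Deposited were matrices of UMI counts, genes by barcodes, with every barcode seen. Per the labels' protocols they come from 10x Genomics 3′ libraries, per the file headers from Cell Ranger 4, and the submitters' processing notes name Cell Ranger 7.0.1 and mm10. The handling of strand is not given in the sources used here. An added reporter feature, mRFP, in 4 CD31 libraries was left out. Over all barcodes it had 364, 930 and 342 UMIs in the vehicle, day 3 and day 7 libraries labelled Cre-positive. It had 0 in the day 7 library labelled Cre-negative, and the remaining libraries do not list it. Cells were barcodes with 1000 UMIs and 500 genes or more, and no more than 10% of UMIs mitochondrial. The Scrublet threshold marked almost no doublets in some libraries, so the highest scores were removed at 0.8% per 1000 barcodes (4.78% to 9.31%). In the CD31 day 3 library labelled Cre-positive, the threshold marked 2 and 1083 were removed. Their median was 2203 UMIs, below the 3433 of the cells kept. In the CD31 vehicle library labelled Cre-negative it marked 0 and 806 were removed, at a median of 3932.5 against 4325 UMIs. In the other libraries the removed barcodes were deeper than the cells kept. Each fraction was clustered with scanpy 1.11.5 (2000 variable genes, 30 components, 20 neighbours, Leiden resolution 1), and blood endothelial-like and stromal cells again. The 7 members, the pathway and cell cycle lists and Atg12 were left out of the genes used for clustering. Sums of UMIs in each class of each library went into edgeR 4.0.16 (R 4.3.3; TMM, default filter, quasi-likelihood, label plus treatment, interaction counted as error), with Benjamini-Hochberg adjustment over all genes at 0.05. The SE is the size of the log2 change divided by the root of F. DESeq2 1.42.0, no filter, no TMM, stricter cells, doublets kept, free RNA subtracted, Y-linked cells only, Leiden resolution 0.5 and leaving out each library were alternatives. Fits were tested on simulated data. Named are the 7 members, of each pathway list the called genes (at most 5 by p) or, with none called, up to 3 of the largest changes at 20 CPM or more, and the 3 genes most like each member; members and lists were chosen with earlier results of these data known, and the Adam19-led, Penk-led and fibroblast-like fits were added after their levels were seen. At most 28 barcodes were shared by a pair of libraries. Coordinates are from GRCm38.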

Additional observations from a re-analysis of the deposited data

Results flagged for a closer look

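Some genes moved in opposite directions under the labels, each label being 1 library per time, and these differences between labels were not tested. Ratios below are day over vehicle, first for the Cre-negative and then for the Cre-positive label.

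Angpt1 in lymphatic endothelial-like cells had ratios of 1.77 and 0.546 at day 7, and Angpt2 in the same cells 0.504 and 1.98, so the ligands crossed. Angpt2 in all blood endothelial-like cells had ratios of 1.64 and 0.798 at day 3 and 1.46 and 0.701 at day 7. Esm1 in all blood endothelial-like cells had 0.921 and 1.21 at day 3. In arterial-like cells at day 7, Esm1 had 1.36 and 0.676 and Tek 1.21 and 0.841. Smaller opposite moves were Aplnr in the Penk-led cluster at day 3 (1.19 and 0.823) and Tie1 in all blood endothelial-like cells at day 7 (0.952 and 1.05). Apln in fibroblast-like cells had 2.16 and 0.613 at day 7, and Esm1 in lymphatic endothelial-like cells, where it was near 0, had 0.0928 and 3.90 at day 3.

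Angpt1 was also counted in blood cells outside the comparisons. It was 65.4 CPM in 216 NK cell-like cells of the CD31 libraries and 87.0 CPM in 398 NK cell-like cells of the CD45 libraries. In 59 cells of a cluster led by Prss34, with the mast cell and basophil genes Mcpt8, Cpa3 and Hdc, it was 246 CPM.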

How the results depend on the processing

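A comparison of treatments paired by animal was not possible, because vehicle and oxazolone were given to separate mice. The label stood beside the treatment as a term in the treatment fits, and HEV-like and capillary-like cells were compared within libraries. In HEV-like cells at day 3, where 1 member was called, the count was 0 without TMM, 3 without a filter and 0 to 3 with libraries left out in turn. At day 7 (0 called) it was 0 to 1 with libraries left out. Between labels (0 called) it was 1 without a filter and 0 to 3 with libraries left out. In arterial-like cells at day 3 (1 called) the count was 3 without a filter, 0 with free RNA subtracted, 0 in cells with Y-linked UMIs and 0 to 2 with libraries left out. In lymphatic endothelial-like cells at day 3 (0 called) it was 1 without a filter (Angpt1, -1.11, adjusted p 0.0380) and 0 to 1 with libraries left out, the call coming without the vehicle library labelled Cre-negative (-1.82, adjusted p 0.0024). In fibroblast-like cells at day 3 (3 called) it was 0 without subclusters 4, 7 and 12 and 0 to 4 with libraries left out, and at day 7 (0 called) 1 with DESeq2, 1 without a filter and 0 to 1 with libraries left out. The cause was not tested. A left-out library leaves a lone library in its group, which is assumed to vary like the others. Counts over all genes moved more: 211 in HEV-like cells at day 3 became 76 to 1784, 163 in arterial-like cells 0 to 1035, 1825 in fibroblast-like cells 2 to 2982 and, at day 7, 29 became 0 to 205. Thinned to 1000 UMIs, median shares of cells with a UMI were lower: Angpt1 in mural-like cells from 49.7% to 22.3%, Angpt2 in the Adam19-led cluster from 34.2% to 9.57%, Apln there from 44.4% to 11.9%, Aplnr there from 72.1% to 26.2%, Tek in venous-like cells from 82.4% to 41.0%, Tie1 in capillary-like cells from 52.5% to 27.1% and Esm1 in the Penk-led cluster from 66.4% to 40.4%. The median shares among cells with Apln were 14.4% thinned and 35.2% unthinned for Esm1, 7.88% and 31.5% for Angpt2, and 20.2% and 70.3% for Aplnr. With Leiden resolution 0.5 venous-like and mural-like cells could not be named and were not run. No value reversed.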
